A study of Mus musculus with 6 samples.

Results

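S-phase transit cells are the crypt cells that copy their DNA outside the Lgr5-type stem cell pool. Here they were chosen by the measured counts of each barcode: 300 or more genes seen, mitochondrial genes taking no more than 25% of counts, and at least 1 molecule (UMI) on 4 or more of 10 S-phase genes. Barcodes with 4 or more of 11 G2/M genes, or with 2 or more of the 5 stem genes Lgr5, Ascl2, Smoc2, Gkn3 and Axin2, were left out. The S-phase genes were Mcm2, Mcm3, Mcm5, Mcm6, Pcna, Tyms, Rrm2, Hells, Dut and Tk1, and the G2/M genes were Mki67, Top2a, Cenpf, Nusap1, Hmmr, Ccnb1, Ccnb2, Cdk1, Ube2c, Birc5 and Ccna2. This rule found 104 cells among 4890 kept barcodes (2.13%) of 13191 in all. By the same genes, 839 kept barcodes were G2/M transit cells (4 or more G2/M genes, under 2 stem genes), 251 were Lgr5-type stem cells (2 or more stem genes) and 3696 were non-cycling (below all 3 limits). These 3 are classes cut by the rule, not annotated types.

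Cells came from small-intestinal crypts of untreated C57BL6 mice aged 10 weeks. Crypts were freed with EDTA, dissociated with trypsin and profiled by Drop-seq, a droplet method that counts polyadenylated RNA molecules per cell barcode. Ptger4, the prostaglandin E2 receptor EP4, was ablated in the intestinal epithelium of the knockout mice, and the controls are labelled Ptger4 flox. Each genotype had 3 Drop-seq collections made from 2 biological replicates. From the sample codes, collections 1 and 2 of a genotype were taken to share replicate 1, and collection 3 was taken as replicate 2. No source used here gives the Cre driver, the deleted part of Ptger4 or the number of animals behind a replicate, so p-values cover the spread between these preparations only.

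In the crypt, stem cells at the base give rise to transit cells that divide a few times on their way up before they mature into absorptive or secretory cells. During G1, the MCM helicase is loaded onto replication origins by the origin recognition complex with Cdc6 and Cdt1. In S phase the helicase opens the DNA, PCNA clamps the polymerases to the template, and ribonucleotide reductase, thymidylate synthase and dUTPase keep the nucleotide pool supplied and free of uracil. Many of these genes are transcribed by E2F factors once the retinoblastoma proteins release them, and G2/M genes follow as the cell prepares for mitosis.

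The promoters of Mcm5 and Mcm6, subunits of the replicative helicase and markers of these cells, are shown because E2F-type motifs lie in both. The motif searched was TTTCCCGC, TTTCGCGC, TTTGCCGC or TTTGGCGC on either strand, matches may overlap, and capitals mark matched bases. The sequences are the 250 bases before the RefSeq gene start in build GRCm38.p6, given on the gene's strand, chr8:75109259-75109508 (plus) for Mcm5 and chr1:128359706-128359955 (minus) for Mcm6.
Mcm5: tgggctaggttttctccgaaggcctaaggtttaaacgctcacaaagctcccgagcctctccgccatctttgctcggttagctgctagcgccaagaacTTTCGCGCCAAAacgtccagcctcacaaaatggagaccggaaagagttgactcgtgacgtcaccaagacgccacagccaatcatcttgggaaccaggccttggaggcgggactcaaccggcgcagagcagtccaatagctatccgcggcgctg
Mcm6: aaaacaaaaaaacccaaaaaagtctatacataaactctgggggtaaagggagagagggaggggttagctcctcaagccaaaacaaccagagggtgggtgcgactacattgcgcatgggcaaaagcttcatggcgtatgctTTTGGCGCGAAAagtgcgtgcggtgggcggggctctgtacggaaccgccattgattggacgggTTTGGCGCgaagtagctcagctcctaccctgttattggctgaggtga

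Mcm5 held 2 matches, which overlap on opposite strands in 1 run, and Mcm6 held 3, of which 2 overlap in the same way. Of the 10 S-phase genes, 3 had a match in this window (Mcm5, Mcm6 and Hells, a chromatin remodeller), against 517 of all 27025 promoters in the table (1.91%). The windows follow RefSeq starts, which differ from those of the GENCODE vM21 annotation. By GENCODE, the Dut window lies within the gene, and those of Pcna, Rrm2, Hells and Tk1 run into theirs. The Mcm5 and Mcm6 windows end some bases before the GENCODE start. A match is a run of letters and was not tested as a binding site.

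Before any comparison, the cells were checked against their label. At least 1 of 8 epithelial genes was found in 100 of the 104 cells and 3 or more in 95, with a median of 5, and Epcam was found in 93. The other 4 cells held none of the 8 and 5 or more immune genes each. Among them, 1 in knockout 1 and 1 in flox 2 carried B cell genes, and 1 in knockout 3 and 1 in flox 2 carried T cell genes, so by these markers the 4 are lymphocyte-type and not epithelial. Of the 104 cells, 11 held 2 or more immune genes, and the comparisons of genotypes were repeated without them. Stroma, vessel and red cell genes were nearly absent: 1 UMI of Pecam1 was found, and Col1a1, Col3a1, Pdgfra, Acta2, Myh11 and the measured globins were at 0.

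An Lgr5 UMI was found in 1 of the 104 cells (in flox 1). The rule left out cells with 2 or more stem genes, Lgr5 among them, so this low count partly follows the cut. In the stem class, cut on the same genes, Lgr5 was found in 106 cells (42.2%). A barcode without an Lgr5 UMI is therefore not shown to lack Lgr5, and the part of stem cells among the 104 was not tested. A single stem gene was allowed, and 41 cells had 1, most often Smoc2 (19 cells) or Axin2 (16 cells), while Ascl2 was found in 3 and Gkn3 in 2. Of the G2/M genes, which the rule used, 74 of 104 cells held 2 or 3, and 79 held Mki67 or Top2a. Free RNA carried these genes too: barcodes with under 100 counts held 1478 CPM of the G2/M list. The S-phase transit cells held 1019 CPM and the non-cycling cells 726 CPM. The part of free RNA in these UMIs was not tested. Among all 336 barcodes with 4 or more S-phase genes, 208 had 4 or more G2/M genes as well, at a median of 7120 UMIs, and 128 had fewer.

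The rule counts detected genes, and detection depends on depth. The 104 cells had a median of 2528 UMIs (range 538 to 14099) and 1261 genes. The class medians were 2655 UMIs in G2/M cells, 3437 in stem cells and 1022 in non-cycling cells. The part of depth in class membership was not tested beyond the thinned shares given below. Just inside the S-phase threshold were 58 cells with exactly 4 S-phase genes (median 1988 UMIs), and just outside were 114 with 3 (median 1772). Just inside the G2/M limit were 28 cells with 3 G2/M genes (median 3024), and just outside were 22 with 4 (median 3340). At the stem limit, 41 cells held 1 stem gene (median 2528) and 11 outside held 2 (median 3341).

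Total counts per collection ran from 1228337 to 3146909, and the summed counts of the S-phase transit cells from 30680 to 68980, so 1 UMI was worth 14.5 to 32.6 CPM, the count of a gene scaled to the same total in every sum. Levels below are CPM of summed cells, and folds per gene compare the same gene between groups. The collections fell into a pair of sets that share cell barcodes: knockout 1, flox 1 and flox 2 shared 9 to 28 barcodes in each pair, as did knockout 2, knockout 3 and flox 3, while pairs across the sets shared 0 to 2. Of the kept barcodes, 135 were shared, 5 of them S-phase transit cells. Ptger4 was not lower in the knockout. Its level over kept barcodes was 17.4, 19.1 and 24.5 CPM in knockout 1 to 3, and 11.9, 13.6 and 15.1 CPM in flox 1 to 3. Each knockout collection thus lay above each flox collection, and the cause was not tested. A 3′ tag outside the deleted part checks nothing, so genotypes are those of the labels throughout. In the S-phase transit cells, Ptger4 was seen as 1 UMI in knockout 3 and 1 UMI in flox 2. The other 4 collections held 0, which allows up to 43.5 to 97.8 CPM at their counts, taking 3 counts as the limit (counting error only).

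The S-phase genes that chose the cells are described here without a test. Pcna, the sliding clamp, was found in 89 of 104 cells, at 907, 587 and 603 CPM in knockout 1 to 3 and 710, 981 and 492 CPM in flox 1 to 3. Hells was found in 77 cells, at 345, 359 and 238 CPM in the knockout and 464, 440 and 549 CPM in the flox collections. Dut, the dUTPase, was found in 57 cells and ranged from 188 to 284 CPM. The genotypes overlapped in Pcna and Dut, and Hells was lower in the knockout without overlap. It was the 1 such gene among 9 S-phase genes with enough counts, beside 78 of all 1298 genes (6.01%). It is not read as a genotype difference.

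Of the helicase subunits, Mcm3 was found in 48 cells (145 to 320 CPM over the 6 collections), Mcm6 in 45 (114 to 220), Mcm5 in 41 (73.1 to 260) and Mcm2 in 35 (94.6 to 200). Tyms, the thymidylate synthase, was found in 52 cells (100.1 to 284 CPM), Tk1, a thymidine kinase, in 32 (73.1 to 203), and Rrm2, the small subunit of ribonucleotide reductase, in 21 (0 to 163, with no UMI in knockout 3). Most cells carried few of the 10: 58 held 4, 25 held 5, 10 held 6, 9 held 7, and 1 cell each held 8 and 9. The cell with 8 was also the deepest, with 14099 UMIs, in knockout 3.

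Genes outside the rule were described next. The cells were cut on S-phase and G2/M genes, so higher replication lists partly follow that cut. How much of each list follows it was not tested. The S-phase transit cells were set beside the other classes within each collection, and a gene was counted when it lay the same way in all 6. The classes were cut from the same cells, so these are descriptions with no test. Log2 ratios were taken at CPM + 20, which understates low genes, and genes needed a mean of at least 50 CPM in either class. A gene could thus enter through 1 class alone, as Mcm4, Cdc6, Dtl and Ccne1 did through the S-phase transit cells beside G2/M cells. Counts and medians of a list therefore lean towards the class where the list is high. Beside G2/M transit cells, 203 of 3503 genes (5.8%) were higher in all 6 collections and 307 (8.76%) were lower.

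Origin licensing and helicase genes outside the rule were higher than in G2/M cells in all 6 collections for 5 of 8 compared: Mcm4, Cdc6, Orc6, Gmnn and Gins2. Their list had a median log2 ratio of 0.86, against -0.13 over all 3503 genes. Mcm4, a helicase subunit, stood at 72.6, 130 and 73.1 CPM in knockout 1 to 3 and 87.0, 100.1 and 189 CPM in flox 1 to 3. Its mean was 109 ± 44.9 CPM (SD, n = 6 collections) against 23.3 CPM in G2/M cells, a mean log2 ratio of 1.54 ± 0.56. Cdc6, the helicase loader, averaged 71.8 CPM against 13.3 CPM (log2 ratio 1.42). Gmnn, geminin, which blocks renewed licensing, averaged 174 CPM against 97.8 CPM, so that loading factors and their inhibitor were both higher.

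At the replication fork, 6 of 14 genes were higher in all 6 collections (Rfc1, Rfc2, Rfc3, Rpa3, Fen1 and Lig1) and none was lower, with a median log2 ratio of 0.65. Lig1, the ligase that seals Okazaki fragments, was found in 69 cells. It ran at 689, 456 and 384 CPM in the knockout and 594, 400.3 and 587 CPM in the flox collections, against a mean of 194 CPM in G2/M cells, 318 in stem cells and 100.5 in non-cycling cells. Rfc1, the large subunit of the clamp loader, averaged 372 ± 184 CPM against 172 CPM in G2/M cells. Its lowest collection was knockout 1 (163 CPM) and its highest knockout 3 (603 CPM), a wide spread within 1 genotype.

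In nucleotide synthesis, 3 of 12 genes were higher than in G2/M cells in all 6 collections (Paics, Impdh2 and Dctpp1), with a median log2 ratio of 0.69. Impdh2, the rate-limiting enzyme of guanine nucleotide synthesis, was found in 64 cells and averaged 341 ± 85.7 CPM against 158 CPM. Paics, a purine synthesis enzyme, averaged 148 CPM against 44.0 CPM (log2 ratio 1.34). Mthfd1, of the folate cycle that feeds thymidylate and purines, averaged 168 CPM against 77.7 CPM and was higher in 5 of 6.

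Genes that rebuild chromatin behind the fork gave 5 of 11 higher (Nasp, Hat1, Uhrf1, Dnmt1 and Cdca7) and 1 lower (H2afx), with a median log2 ratio of 0.93. Nasp, a histone chaperone, was found in 78 cells and averaged 704 ± 184 CPM against 324 CPM. Uhrf1 recruits the maintenance methyltransferase Dnmt1 to newly made DNA, and it averaged 124 CPM against 32.7 CPM (log2 ratio 1.39). H2afz, a histone variant made outside the replication-coupled pool, stood at 718 CPM against 652 CPM and was higher in 4 of 6.

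Of the checkpoint and repair genes, 4 of 10 were higher than in G2/M cells, among them Dtl, Usp1 and Atad2, with a median log2 ratio of 0.79. Usp1, which removes ubiquitin from PCNA, averaged 260 ± 66.3 CPM against 137 CPM. Dtl, the adaptor that targets Cdt1 for destruction in S phase, averaged 67.9 CPM against 14.7 CPM. Claspin (Clspn), the adaptor of the replication checkpoint, averaged 175 CPM against 80.7 CPM and was higher in 5 of 6.

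Nucleolar and ribosome biogenesis genes went with the replication genes: 7 of 13 were higher than in G2/M cells in all 6 collections (Ncl, Npm1, Fbl, Nop56, Nolc1, Gnl3 and Gar1), with a median log2 ratio of 0.62. Ncl, nucleolin, was found in 102 of 104 cells. It stood at 4643, 3944 and 4334 CPM in the knockout and 6074, 4243 and 5450 CPM in the flox collections, against a mean of 2922 CPM in G2/M cells. Npm1, nucleophosmin, averaged 1954 ± 349 CPM against 1079 CPM. The G1 regulators split: Ccne1 (56.5 against 13.9 CPM) and Cdk4 (222 against 120 CPM) were higher in all 6, whereas Ccnd2 was 622 against 641 CPM.

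Mitosis genes outside the rule were lower than in G2/M cells in 19 of 27 and higher in none, with a median log2 ratio of -1.21. The rule sorts these cells on G2/M genes, so this count follows the cut. Cenpe, a kinetochore motor, averaged 106 CPM against 481 CPM, and Arl6ip1 142 CPM against 659 CPM. Hmgb2, a chromatin protein of cycling cells, was found in 96 cells and was closer, at 1552 ± 289 CPM against 2135 CPM.

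Genes of mature epithelium were lower as well. Enterocyte genes were lower than in G2/M cells in 6 of 11 (Sis, Krt20, Prap1, Mttp, Reg3b and Reg3g) and higher in none. Krt20, a keratin of differentiated cells, averaged 50.6 CPM against 236 CPM. Reg3g, an antimicrobial lectin, was found in 80 cells at 2682 to 3918 CPM, against a mean of 4882 CPM in G2/M cells. Chgb, a granin of hormone cells, averaged 8.77 CPM (2 cells) against 139 CPM, and the ileal bile acid binding protein gene Fabp6 339 CPM against 1514 CPM.

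Among the 12 genes with the largest positive ratios to G2/M cells were also Slfn9 (log2 ratio 1.54), the interferon-induced membrane protein gene Ifitm3 (1.33), Cirh1a (1.15), a ribosome biogenesis factor, and Fam111a (1.12), a protease linked to replication. Ifitm3 averaged 305 CPM against 108 CPM in G2/M cells and 66.9 CPM in non-cycling cells. None of these 4 was in a replication list.

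**Figure D1:**
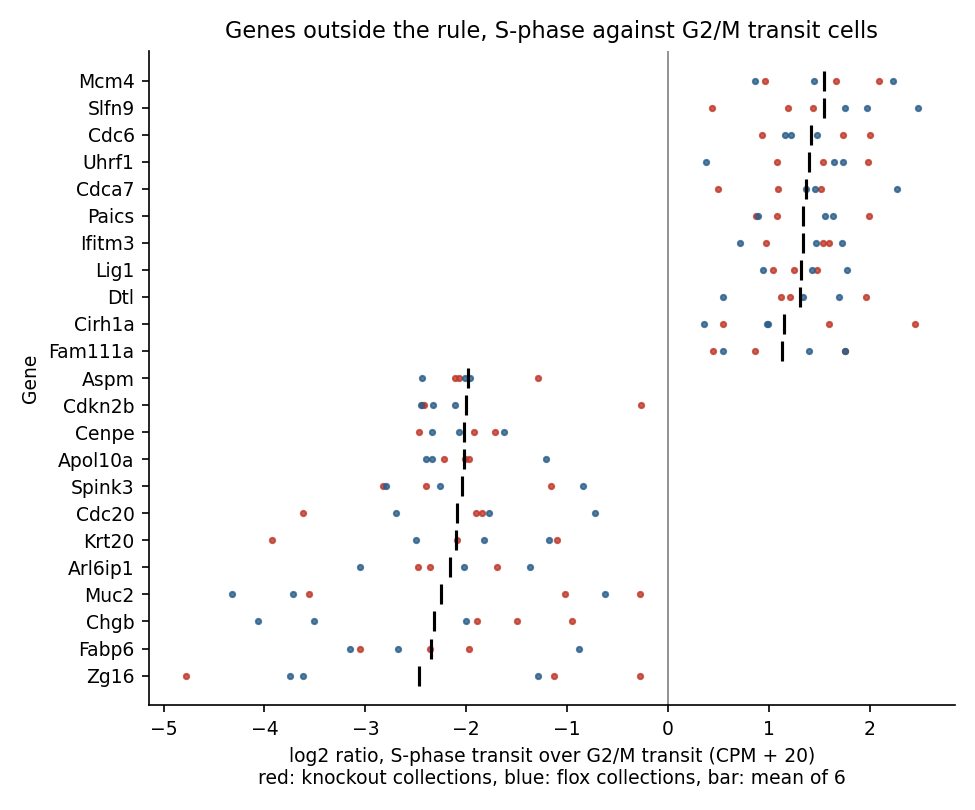
Log2 ratio (CPM + 20) of S-phase transit over G2/M transit cells for genes with the largest mean ratios, up to 12 per direction, among those alike in direction in all 6 collections. Points are collections (red knockout, blue flox) and black bars their means, which run from 1.54 for Mcm4 to -2.47 for Zg16. The goblet genes Zg16 and Muc2 spread far more between collections than Mcm4 or Lig1.

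E2F-type motifs were counted in the promoters of the genes compared with G2/M cells. A RefSeq promoter was found for 153 of the 203 higher genes, and 16 of these (10.5%) held a match. Among them were the S-phase list genes Cdc6, Cdca7, Dtl and Rfc3 and the nucleolar genes Ncl and Nolc1, named after the matches were seen. Of the 307 lower genes, 234 had a promoter and 4 (1.71%) held a match, and of all 3503 compared, 119 of 2663 (4.47%) did. These are counts with no test, and neither Mcm4 nor Lig1 was among the 16.

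Beside non-cycling cells the same replication lists stood higher still. In all 6 collections, 492 of 3627 genes (13.6%) were higher and 589 (16.2%) lower. Higher were 7 of 8 licensing genes (median log2 ratio 1.36), 9 of 14 fork genes (1.15), 8 of 12 nucleotide genes (1.14), 8 of 10 chromatin genes (1.33), 7 of 10 checkpoint genes (1.27) and 10 of 13 nucleolar genes (1.11), against a median of -0.06 over all genes compared. Lig1 had the largest ratio (2.14), followed by Stmn1 (2.05), a microtubule regulator of dividing cells, at 456 CPM against 94.1 CPM. Trp53, which encodes p53, averaged 164 CPM against 60.8 CPM and was higher in all 6. Its target Cdkn1a, the p21 inhibitor of the cell cycle, was lower in all 6, at 75.4 against 307 CPM.

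All 14 enterocyte genes compared were lower than in non-cycling cells in all 6 collections, with a median log2 ratio of -2.83. Apoa1, an apolipoprotein of fat-absorbing cells, averaged 59.4 CPM against 1925 CPM, and Sis, sucrase-isomaltase, 33.8 CPM against 627 CPM. The brush-border peptidase gene Anpep had no UMI in the S-phase transit cells. All 4 hormone cell genes compared were also lower. Of the Paneth genes, 7 of 8 were lower, but these transcripts dominate the free RNA: their list took 72662 CPM of 3763 barcodes with under 100 counts, against 1763 ± 630 CPM in the S-phase transit cells. Goblet genes were lower in 3 of 6 (Muc2, Fcgbp and Zg16). Of the cAMP-responsive genes, 6 of 9 were lower (Fos, Fosb, Junb, Areg, Dusp1 and Rgs2).

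The stem cell class differed from the S-phase transit cells in fewer genes. In all 6 collections, 65 of 3423 genes (1.9%) were higher in S-phase transit cells and 156 (4.56%) lower. Licensing genes were higher in 3 of 8 (Mcm4, Mcm10 and Cdc6), and of the fork genes 1 of 15 was (Lig1). Of 12 nucleotide, 11 checkpoint and 13 nucleolar genes, none was higher in all 6. Mitosis genes were lower in 18 of 25. The stem class was not cut on G2/M or S-phase genes, and 94 of its 251 barcodes held 4 or more S-phase genes. The 10 S-phase genes summed to 1171 CPM in stem cells, against 2442 CPM in S-phase transit and 386 CPM in non-cycling cells. The smaller difference is therefore not read as closeness of cell type.

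Stem genes outside the rule were graded. Slc12a2, an ion cotransporter of crypt base cells, was found in 62 of the 104 cells. Its level was 200, 293 and 439 CPM in knockout 1 to 3 and 464, 520 and 700.2 CPM in flox 1 to 3, lower in the knockout collections without overlap, though it did not pass the edgeR test given below (log2 fold change -0.84, SE 0.41, adjusted p = 0.997). Its mean of 436 ± 175 CPM lay between those of stem (702 CPM) and non-cycling cells (201 CPM). Olfm4, a crypt base marker, was likewise between, at 124 CPM against 183 and 35.0 CPM. Aqp4, a water channel, was at 95.2 CPM, near the 87.6 CPM of stem cells. Rnf43 and Lrig1, which restrain Wnt and EGF receptor signalling, were with Slc12a2 lower than in stem cells in all 6 collections.

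**Figure D2:**
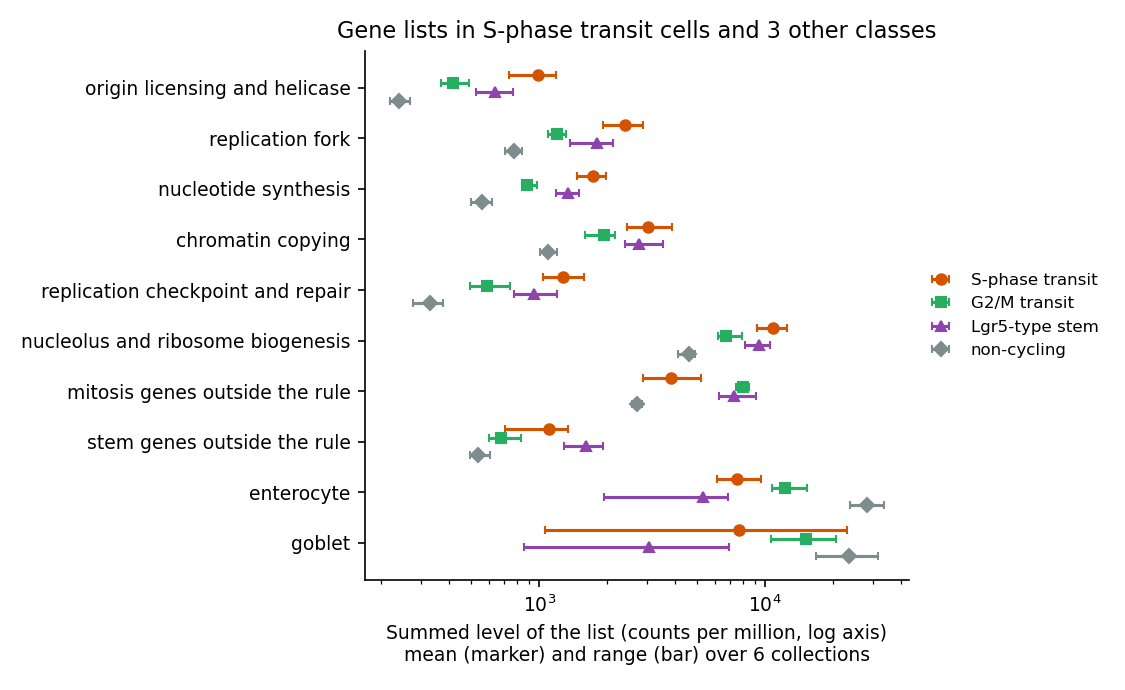
Summed CPM of 10 gene lists in the 4 classes, as the mean (marker) and range (bar) over 6 collections on a log axis. The replication lists are highest in S-phase transit cells and lowest in non-cycling cells. The enterocyte sum is highest in non-cycling cells (28189 CPM) and lowest in stem cells (5328 CPM), but Reg3b and Reg3g make up most of it. They gave 2952 and 3357 CPM of 7511 CPM in S-phase transit cells, and 1997 and 1982 CPM in stem cells. Gene by gene against stem cells, the enterocyte median log2 ratio was -0.23, and only Reg3g was higher in all 6 collections. The goblet list has the widest range in S-phase transit cells (1058 to 23175 CPM).

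A few cells carried most of the secretory RNA. Goblet-list genes took 3% or more of the counts in 5 of the 104 cells, and these 5 held 1614 of the 1963 goblet UMIs (82.2%). The 5 had 10.3%, 7.38%, 5.34%, 4.90% and 3.45% of their counts on the list, while the other 99 reached at most 2.0% with a median of 0.055%. Each of the 5 held 4 or 5 S-phase genes and 2 or 3 G2/M genes, with 3034 to 6995 UMIs. The cell with 10.3% held 253 UMIs of Tff3, the trefoil peptide of mucus, and 23 of Muc2, the gel-forming mucin. Doublets of a goblet and a dividing cell were not called, and their part in these 5 cells was not tested.

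The 5 cells lay in knockout 2 (1 cell), knockout 3 (2 cells) and flox 3 (2 cells), and they set the goblet level of those collections. With all cells, the summed list stood at 1578, 23175 and 9637 CPM in knockout 1 to 3 and 1058, 1481 and 9292 CPM in flox 1 to 3. Without the 5 cells it was 1578, 916 and 1189 CPM in the knockout and 1058, 1481 and 915 CPM in the flox collections. The spread between collections thus came from those 5 cells, all in the set of collections that share barcodes with each other. The free-RNA barcodes stood at 14413 CPM for this list. Atoh1, the factor that commits cells to the secretory fate, was found in 2 of the 104 cells, and Hes1, its repressor downstream of Notch, in 43.

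**Figure D3:**
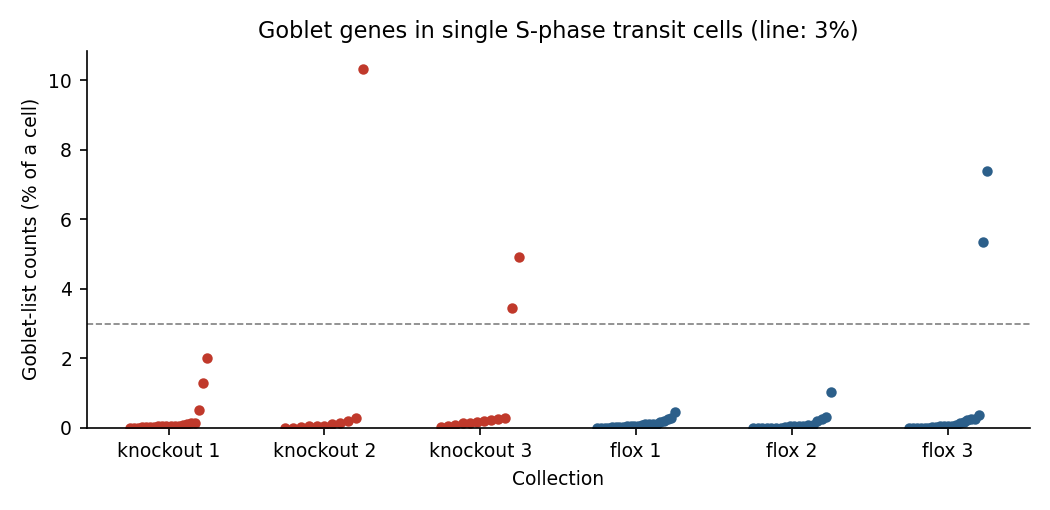
Share of each S-phase transit cell's counts on the goblet list (y axis, %), by collection (x axis), with cells ordered by value within a collection and a dashed line at 3%. The 5 cells above the line are 1 in knockout 2, 2 in knockout 3 and 2 in flox 3, and the highest reaches 10.3%.

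Whether loss of Ptger4 changed the number of S-phase transit cells was asked over kept barcodes. Their share was 2.65% (95% exact Clopper-Pearson interval 1.63 to 4.07), 1.56% (0.784 to 2.78) and 1.22% (0.634 to 2.13) in knockout 1 to 3. It was 2.09% (1.31 to 3.15), 3.81% (2.27 to 5.95) and 2.27% (1.41 to 3.45) in flox 1 to 3. Intervals cover counting error only. The knockout collections included the lowest shares, but knockout 1 lay above flox 1 and flox 3.

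Over biological replicates the share was 1.68% ± 0.640 in knockout and 2.44% ± 0.250 in flox (SD, n = 2 each), a difference of -0.769 percentage points. The exact two-sided permutation test gave p = 0.33, the smallest that 2 against 2 replicates allow. Over the 6 collections the exact permutation test gave p = 0.3, where 0.1 is the smallest possible. After thinning each barcode to 1000 UMIs, which left out 1924 kept barcodes and 6 S-phase transit cells as too shallow, the shares were 0.802% ± 0.379 and 1.34% ± 0.602 (exact permutation p = 0.667). As a share of S-phase and G2/M transit cells together, the values were 9.88% ± 5.0 in knockout and 11.4% ± 2.71 in flox (exact permutation p = 1). Over biological replicates as counted, the knockout shares (2.13% and 1.22%) lay below the flox shares (2.62% and 2.27%) without overlap. A test of 2 against 2 cannot pass a threshold of 0.05, so it leaves the difference undecided.

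**Figure D4:**
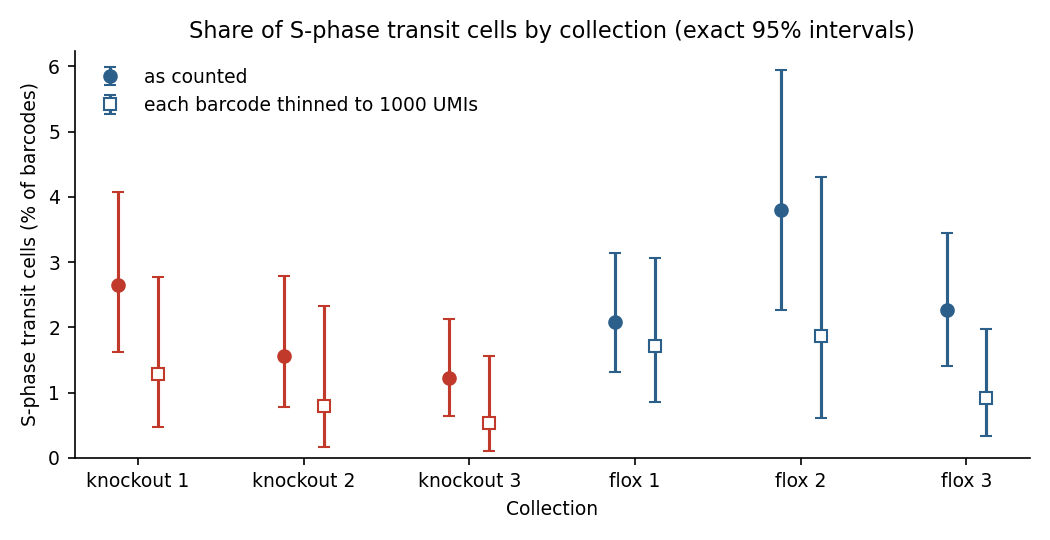
S-phase transit cells as a percentage of kept barcodes in each collection (red knockout, blue flox), as counted (filled circles) and after thinning each barcode to 1000 UMIs (open squares), with exact 95% intervals. The flox 2 collection is highest at 3.81% and knockout 3 lowest at 1.22%, and as counted the intervals of those 2 do not overlap.

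Within the S-phase transit cells, Mt1 was the 1 gene called different between genotypes by edgeR. Genes that were not called are not shown to be alike. Mt1 encodes metallothionein 1, a small cysteine-rich protein that holds zinc and copper ions, and the gene sits on chromosome 8 from 94179082 to 94180327 (GRCm38, plus strand). Its level was 798, 1076 and 1262 CPM in knockout 1 to 3, from 44, 33 and 69 UMIs. In flox 1 to 3 it was 203, 360.3 and 359.5 CPM, from 14, 18 and 19 UMIs. Every knockout collection lay above every flox collection.

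Counts were summed per biological replicate and 2 knockout sums were tested against 2 flox sums with edgeR's quasi-likelihood test. The first knockout sum joined knockout 1 and knockout 2, which lie in different sets of shared barcodes. The first flox sum joined flox 1 and flox 2, which lie in the same set. Of 1298 genes tested, 1 was higher in the knockout (0.077%) and 0 were lower (0.0%) at a Benjamini-Hochberg adjusted p under 0.05, and 34 had an unadjusted p under that value. Mt1 had a log2 fold change of 1.80 (SE 0.38, adjusted p = 0.0131, edgeR). DESeq2, run on every gene with a count, called 0 of 11165 genes, with 4 at an unadjusted p under 0.05. It gave Mt1 a log2 fold change of 1.81 with an adjusted p of 0.999, adjusted over that larger set.

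Mt1 was spread over many cells. It was detected in 39 of 43 knockout cells (90.7%) and 28 of 61 flox cells (45.9%), and after thinning to 1000 UMIs in 24 of 41 (58.5%) and 18 of 57 (31.6%). In knockout 3, 26 and 18 of the 69 UMIs came from 2 cells, and without them that collection stood at 721 CPM, still above every flox collection. Free RNA carried Mt1 too: barcodes with under 100 counts held 503 CPM in knockout and 171 CPM in flox, from 56 and 21 UMIs. These levels rest on few collections. Flox 2 gave 110836 of the 122756 flox counts, and knockout 1 and 2 gave 66115 and 42825 of the 111343 knockout counts. The part of free RNA in the difference was not tested.

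The size of the Mt1 difference stayed between 1.40 and 2.19 on the log2 scale in the 24 alternatives that gave a value, but the call held in 12 of them. Leaving out any 1 of flox 1 (1.55, adjusted p = 0.160), flox 2 (1.95, 0.0885), knockout 1 (1.92, 0.0618) or knockout 3 (1.58, 0.9995) ended the call in edgeR. Within the sets of collections that share barcodes the value was 1.56 (adjusted p = 0.347, knockout 1 against flox 1 and 2) and 1.68 (adjusted p = 0.0768, knockout 2 and 3 against flox 3). With the 11 cells of 2 or more immune genes left out, or the 5 goblet-rich cells, Mt1 remained the 1 gene called.

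The other classes showed the same order. Mt1 stood at 886, 944 and 1079 CPM in knockout and 244, 199 and 198 CPM in flox G2/M cells. It was 1026, 1003 and 935 CPM against 278, 411 and 170 CPM in stem cells, and 1364, 1330 and 1746 CPM against 265, 237 and 410 CPM in non-cycling cells. The difference in log2 fold change between S-phase transit and non-cycling cells was -0.54 (SE 0.39), which did not pass the edgeR interaction test (unadjusted p = 0.163, adjusted p = 1). The rise in Mt1 was therefore not shown to differ between these classes.

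**Figure D5:**
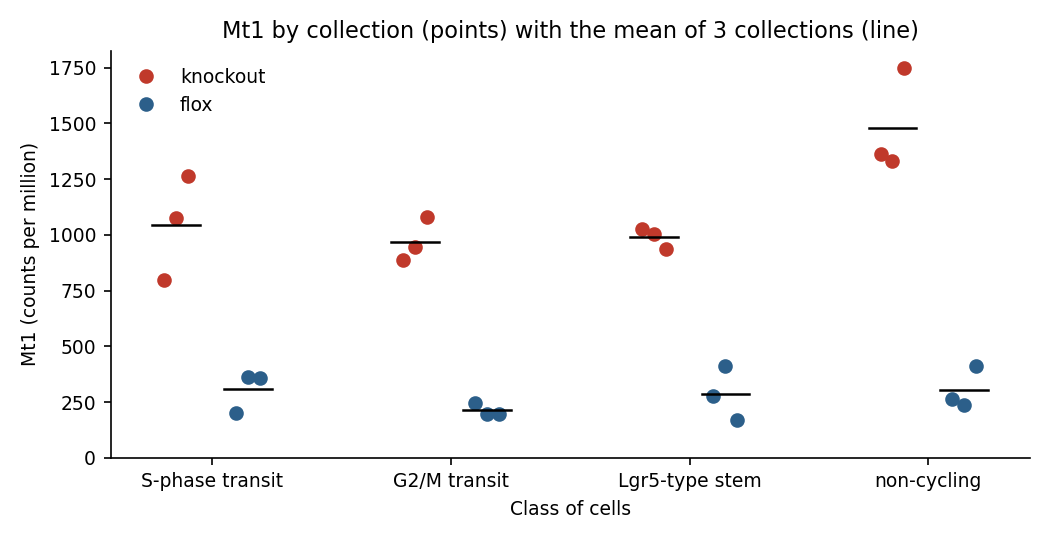
Mt1 level (CPM, y axis from 0) in each of 4 classes for knockout (red) and flox (blue) collections, with the mean of 3 collections as a line. In S-phase transit cells the knockout points lie between 798 and 1262 CPM and the flox points between 203 and 360.3 CPM, and the genotypes do not overlap in any class.

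The close paralog Mt2 was too low to test, with 5 cells, at 0, 32.6 and 73.1 CPM in knockout 1 to 3 and 14.5, 0 and 18.9 CPM in flox 1 to 3. Of the 12 metallothionein and zinc genes on the list, Mt1 was the 1 that had enough counts to be tested. Mtf1, the zinc-sensing activator of metallothionein genes, was found in 9 cells, and the zinc importer gene Slc39a4 in 15.

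The median log2 fold change over all 1298 genes was 0.01. Groups that do not overlap occurred in 44 of the 1298 genes with the knockout above (3.39%) and in 78 with the knockout below (6.01%). By collection values below the flox range, without passing the test, stood 2 of 6 fork genes (Rpa3 and Rfc2), 2 of 7 chromatin genes (Ssrp1 and Chaf1a), 1 of 2 checkpoint genes (Usp1), 2 of 5 mitosis genes (Smc2 and Hmgb2) and 1 of 11 nucleolar genes (Nolc1). None of the 2 licensing, 6 nucleotide and 3 G1 regulator genes tested did. Rpa3, a subunit of the single-strand binding complex, was at 90.7, 97.8 and 91.4 CPM against 232, 200.2 and 151 CPM, with a log2 fold change of -1.04 (SE 0.62, adjusted p = 0.997, edgeR). Median log2 fold changes were -0.11 for 2 licensing, -0.32 for 6 fork, -0.13 for 6 nucleotide, -0.33 for 7 chromatin and -0.18 for 11 nucleolar genes tested. No gene of these lists passed the test.

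Goblet genes were higher in value in the knockout in 6 of 6 tested (median log2 fold change 0.92), and none passed. Their collections overlapped and followed the 5 goblet-rich cells given above. Paneth genes were lower in value in 5 of 5 tested (median -0.79), with Defa24, Defa21 and Defa22 below in every knockout collection. Defa24 was at 617, 554 and 841 CPM against 913, 861 and 1590 CPM (log2 fold change -0.79, SE 0.36, adjusted p = 0.997, edgeR). These defensin genes are near-identical copies between which counting can split reads, and barcodes under 100 counts held 32614 CPM of Defa24 alone. The part of free RNA in these values was not tested.

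The remaining genes with the smallest unadjusted p did not pass the edgeR test either, with adjusted p from 0.967 to 0.997. Higher in value in the knockout were Hspa1a (log2 fold change 1.41), an inducible chaperone, Aldh9a1 (1.33), Psme2b (1.24) and Ppp2r2a (1.60), a phosphatase subunit. Lower in value were Hdgf (-1.43), Larp7 (-1.19), Smarcc1 (-1.20), a chromatin remodelling subunit, Mllt4 (-1.31) and Itga6 (-2.0), the integrin alpha 6 chain. Itga6 had 36.3, 65.2 and 54.9 CPM in knockout 1 to 3 and 174, 180 and 246 CPM in flox 1 to 3. Its groups did not overlap, but the values rest on 7 UMIs in the knockout and 34 in the flox sums.

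Of the prostaglandin pathway, Ptges3 was the 1 gene tested (log2 fold change -0.75, not passed). Ptgs1, Ptgs2, Ptges and Ptger2 had no UMI in the 104 cells.

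Whether the knockout effect differed between S-phase transit and non-cycling cells was tested with edgeR over 8392 genes, with the biological replicate as a block. Genes could enter this test through the larger non-cycling sums. In the S-phase transit cells alone 1298 genes had enough counts, so for many of the 8392 the test could show little. A single gene passed (1 of 8392, 0.0119%): Ccl6, a chemokine gene on chromosome 11, with a difference in log2 fold change of 3.50 (SE 0.73, adjusted p = 0.0138, edgeR). In the S-phase transit cells, Ccl6 had 0, 23 and 6 UMIs in knockout 1 to 3 and 1 UMI in each flox collection. All 23 UMIs of knockout 2 were in 1 cell, the one with 10.3% of its counts on goblet genes. Without the 5 goblet-rich cells the difference was -0.55 (SE 1.77, adjusted p = 1), and without knockout 2 it was 1.73 (adjusted p = 1).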

How the data were processed

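The authors deposited 6 tables of raw counts per gene and barcode, whole numbers with no normalization. Reads were aligned with STAR 2.6 to mm10, per the submitters' processing notes, and how barcodes were selected for deposit is not given in the sources used here.

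Barcodes were filtered and classed as described above, and counts were summed per collection or biological replicate. The members and the 30 gene lists were chosen with earlier results of these data known. The 2 knockout and 2 flox sums were tested with edgeR 4.0.16 (TMM, filterByExpr at a minimum count of 10, robust quasi-likelihood, Benjamini-Hochberg threshold 0.05) in R 4.3.3. The script was tested on simulated data. The summed members held 30680 to 68980 counts per collection. Shares were compared by exact permutation. Alternatives were DESeq2 1.42.0, other size factors, filters, member rules, replicate blocks and leaving out each collection. Doublets were not called or removed.

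Genes named are Mt1, Mt2 and Ptger4, genes past the threshold (mean of at least 20 CPM, no overlap), filled to 5 per direction by unadjusted p at 50 CPM or more, up to 4 per list by mean CPM, the rule's genes, and 12 per direction between classes, of which 1 is not reported here. A few others were named after their values were seen, to spell out counts. Of 19178 symbols, 17963 were found in GENCODE vM21 (GRCm38), whose positions are given. Promoter sequences are from RefSeq (GRCm38.p6).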

Additional observations from a re-analysis of the deposited data

Results flagged for a closer look

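Ccl6 met the criterion for a knockout effect that differs between cell classes by a test of the difference itself. Its log2 fold change was higher by 3.50 in S-phase transit than in non-cycling cells (SE 0.73, adjusted p = 0.0138, edgeR interaction test over 8392 genes). Of 29 UMIs in knockout S-phase transit cells, 23 were in 1 goblet-rich cell of knockout 2, and the flox cells held 3. No cause was tested.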

How the results depend on the processing

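The count of genes that differ between genotypes was 1 and became 0 with no filter on low counts, with DESeq2, with at most 10% mitochondrial counts, with fewer than 2 G2/M genes, with no stem gene and within set 1 (knockout 1, flox 1 and flox 2). It was 2 with 5 or more S-phase genes (Spink4 and Tff3). Within set 2 (knockout 2, knockout 3 and flox 3) it was 1, but the gene was mt-Rnr1, lower in the knockout. With the biological replicate number as a block it was 0, and with the collection number as a block it was 2 (Clca3 and Mt1). Leaving out 1 collection gave 0 to 8, where the 8 came without flox 3 and included goblet genes. The log2 fold change of Mt1 lost its call at 1.78 with no filter, 1.81 with DESeq2, 1.62 at 10% mitochondrial counts, 1.40 with 5 or more S-phase genes, 1.44 with no stem gene, and 1.56 and 1.68 within sets 1 and 2. With the replicate block it was 1.76 (adjusted p = 0.251). Without 1 collection it ran from 1.55 to 1.97. No Mt1 value could be had with fewer than 2 G2/M genes, where Mt1 did not enter the fit.

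The count of genes in the interaction test was 1 and became 0 with no filter, with all other kept barcodes as the comparison class, with no replicate block and without the goblet-rich cells (added after seeing the data), and 0 to 10 without 1 collection. The difference for Ccl6 turned to -0.55 without the goblet-rich cells. The difference in share of S-phase transit cells kept its direction in 18 of 19 alternatives, but its size varied. With no stem gene it shrank to -0.073 percentage points (1.23% in knockout, 1.30% in flox), and the replicates overlapped. With fewer than 2 G2/M genes it turned to 0.185 percentage points (exact permutation p = 1). For all of these, the cause was not tested. Alternatives that left out shared barcodes or goblet-rich cells, took the sets apart, dropped the interaction's block, blocked the 6 collections by replicate or left shallow barcodes unthinned were chosen after seeing the data.

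Same-numbered collections did not deviate together (correlations 0.045, -0.012 and 0.105), nor did the 2 biological replicates (0.0988), so the numbers were not taken as pairs. Knockout and flox pairs within a set of shared barcodes gave 0.045, 0.081, 0.00897 and 0.105. Pairs across the sets gave -0.11 to 0.0036. Where 1 sum remained in a genotype, it was assumed to vary like the others. Depth limits the genotype test within the S-phase transit cells to 1298 genes, and Mt2 and Ptger4 fell below its filter.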
